A study of Mus musculus with 5 samples.

Results

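The homeostatic microglia identity genes Tmem119, Sall1, Fcrls, Olfml3, Sparc, Slc2a5, Selplg and Rhob were examined in RNA of CD11b-positive brain cells. These 8 genes were taken by symbol from a count table of 56748 genes, as microglial signature genes outside the purinergic, chemokine and Siglec receptor families, and all 8 were found and were among the 17724 genes that could be tested. The mice were 7 months old, and the cerebellum had been removed. There were 3 libraries from 5xFAD/Cd5l tg/wt mice (mice 1, 2 and 3), in which the human PDGF-B promoter drove mouse CD5L on the 5xFAD background and which are called Cd5l-transgenic here, and 2 libraries from 5xFAD mice (mice 1 and 3). All 5 mice thus carried 5xFAD, a transgenic model that forms amyloid plaques, and wild-type mice were not analysed here. The human PDGF-B promoter is commonly used to express transgenes in neurons. CD11b-positive cells stand in the titles and in the extraction protocol, whereas the descriptions of the libraries and the design text speak of brain tissue. The method of isolation was among the details not given in the sources used here. The comparison asks how forced CD5L, a secreted scavenger-receptor-family protein of macrophages, goes with expression of the microglial identity genes.

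Microglia are the resident macrophages of the brain. In healthy tissue they express a set of genes that tells them apart from other macrophages, which is kept up by TGF-beta signalling and by the transcription factor SALL1. Around amyloid plaques many microglia lower part of this set and turn on genes of lipid handling, lysosomes and phagocytosis.

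Libraries held 30798377 to 34794617 counts, and the 8 genes together took 1.11%, 1.09% and 1.2% of the counts in Cd5l-transgenic mice 1, 2 and 3, against 1.12% and 1.14% in 5xFAD mice 1 and 3. Cd5l fitted the labels, with 7230, 10680 and 6438 counts in Cd5l-transgenic mice 1, 2 and 3, against 45 and 9 counts in 5xFAD mice 1 and 3. The cell type fitted its markers. A list of 14 pan-microglial genes, among them Ctss, summed to between 43620 and 46340 CPM (counts scaled to each library's total, with TMM factors) in the Cd5l-transgenic libraries and between 40590 and 46980 CPM in the 5xFAD libraries. The 8 neuronal genes summed to between 9.59 and 21.98 CPM in the Cd5l-transgenic libraries and between 7.49 and 15.0 CPM in the 5xFAD libraries. RNA of other cells was uneven. The 8 oligodendrocyte genes summed to 1133, 4499 and 390 CPM in Cd5l-transgenic mice 1, 2 and 3. In 5xFAD mice 1 and 3 they summed to 381 and 360.1 CPM. All 8 had log2 fold changes above 0, and 4 lay higher in every Cd5l-transgenic library, against 7.20% of all tested genes. The 9 choroid plexus and ependymal genes reached 4291 CPM in 5xFAD mouse 3, against 437.2 to 1018 CPM in the others. All 9 had log2 fold changes below 0, and 0 lay lower in every Cd5l-transgenic library, against 8.69%. Neither edgeR nor DESeq2 called any gene of these lists. In the edgeR test 1 gene of each had an unadjusted p under 0.05, against 2.63% of all tested genes. The 5 erythroid genes summed to 7.40, 20.76 and 8.53 CPM in Cd5l-transgenic mice 1, 2 and 3, against 2.41 and 1.47 CPM in 5xFAD mice 1 and 3. All 5 lay higher in every Cd5l-transgenic library, against 7.20% of all tested genes. All 5 had an unadjusted p under 0.05 in the edgeR test, against 1.14% of all tested genes in that direction. After adjustment edgeR called 0. DESeq2 called 1, Hba-a1, against 0.0752% of the genes it tested. It gave no adjusted p for Hba-a2, Hbb-bt and Alas2, which had 2 to 5 counts in the 5xFAD libraries. In bulk RNA of this kind, fewer cells of a type and less RNA per cell cannot be told apart.

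The homeostatic identity genes were abundant in every mouse, and no difference between the genotypes passed the test. By mean CPM they ranked from 26 (Rhob) to 729 (Slc2a5) among the 17724 tested genes. None of the 8 passed the edgeR quasi-likelihood test (adjusted p = 0.995 to 0.999, with adjustment over all tested genes), where 0% of all tested genes passed. At an unadjusted p under 0.05 there were 0 of the 8, against 2.63% of all tested genes (1.14% higher and 1.50% lower in the Cd5l-transgenic mice), and the DESeq2 Wald test called 0 of the 8, against 0.0752% of the genes it tested. The edgeR test is strict with these 5 libraries: Cd5l itself, with a log2 fold change of 8.23 (SE 0.60), had an edgeR adjusted p = 0.448, against a DESeq2 adjusted p = 5.79e-19, so a count of 0 does not show that levels were equal. Log2 fold changes of Cd5l-transgenic over 5xFAD ran from -0.16 to 0.09, with 6 above 0 and 2 below. Their median was 0.02, beside -0.03 over all tested genes. The 95% intervals of the 8 log2 fold changes lay between -0.52 and 0.33, that is, between 0.696-fold and 1.26-fold. In 1 of the 8, Tmem119, the Cd5l-transgenic libraries all lay above both 5xFAD libraries, a share of 12.5%, against 15.9% of all tested genes with no overlap in either direction and 7.20% with the Cd5l-transgenic mice higher and 8.69% with them lower.

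**Figure D1:**
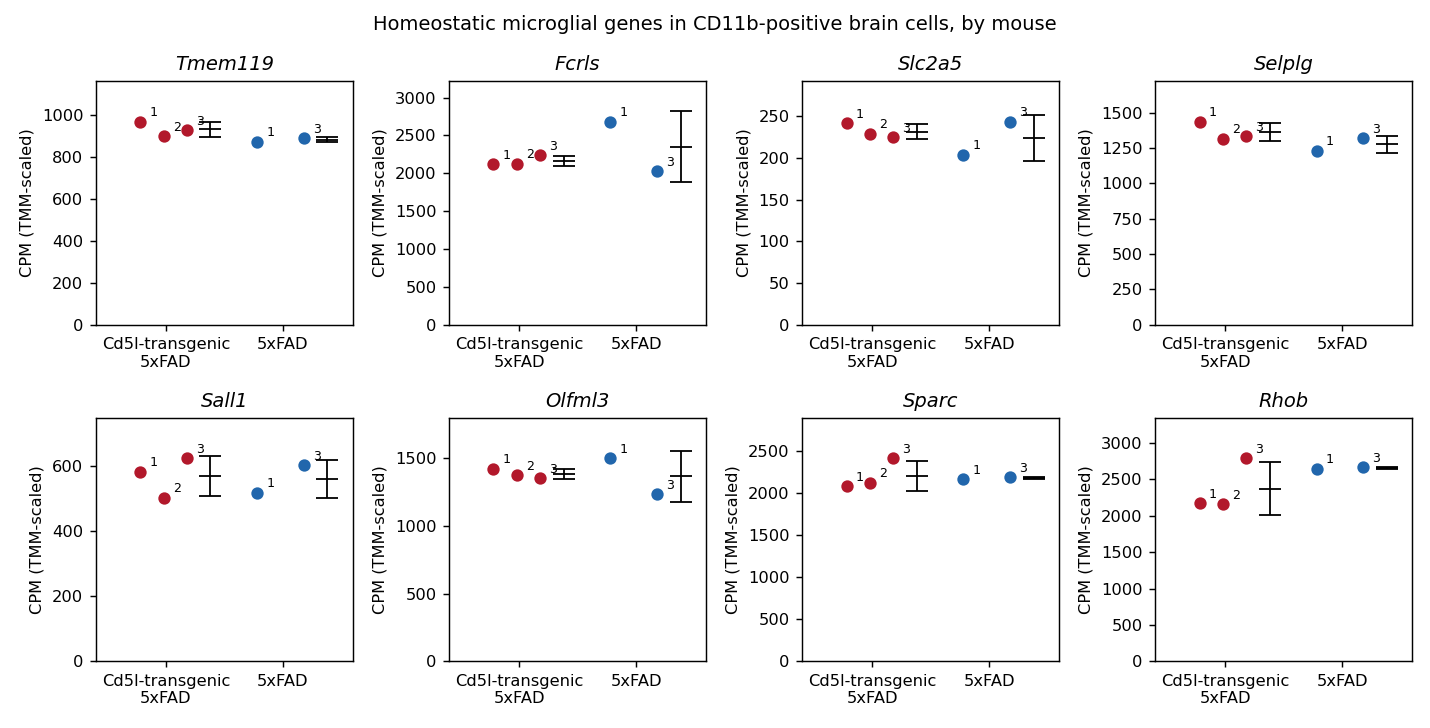
Level of each of the 8 homeostatic genes in TMM-scaled CPM (vertical axis from 0) in the 3 Cd5l-transgenic 5xFAD mice (red) and the 2 5xFAD mice (blue), with mouse numbers beside the points. Horizontal bars with whiskers give mean and SD, and the groups overlap for every gene except Tmem119, whose lowest Cd5l-transgenic value was 899.5 CPM and highest 5xFAD value 891.8 CPM.

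Compared per base of gene length, the 8 genes covered a wide range, and the order hardly changed between mice. Rhob averaged 1057 CPM per kb over the 5 libraries, Fcrls 958.5, Sparc 578, Tmem119 394.3, Selplg 310.8, Olfml3 223.7, Sall1 107.5 and Slc2a5 67.1 CPM per kb. Every neighbouring pair in this order was separate in its ranges over the 5 libraries, except Rhob and Fcrls. Rhob was above Fcrls in 4 of 5 libraries, and the lowest Rhob value of 916.9 CPM per kb lay below the highest Fcrls value of 1149 CPM per kb. Levels per kb depend on the single gene length deposited for each gene. Without division by length Olfml3 averaged 1378 CPM, above Selplg at 1328 CPM and Tmem119 at 912.7 CPM.

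Among the proteins of the microglial surface, Tmem119 encodes a transmembrane protein widely used to tell resident microglia from infiltrating macrophages (ENSMUSG00000054675, chromosome 5, 113931790 to 113938577, minus strand, GRCm39). It stood at 969.8, 899.5 and 928.5 CPM in Cd5l-transgenic mice 1, 2 and 3, against 874 and 891.8 CPM in 5xFAD mice 1 and 3. The groups did not overlap, but the gap between the nearest mice was less than the SD of either group, at 35.3 CPM (n = 3) in the Cd5l-transgenic and 12.6 CPM (n = 2) in the 5xFAD mice. The means were 932.6 CPM in the Cd5l-transgenic and 882.9 CPM in the 5xFAD mice, a log2 fold change of 0.08 (SE 0.09, edgeR quasi-likelihood adjusted p = 0.995). Relative to the summed pan-microglial genes, Tmem119 made up 2.09%, 2.06% and 2.11% in the Cd5l-transgenic mice and 1.86% and 2.20% in the 5xFAD mice, and on that scale the groups overlapped. Tmem119 was the steadiest of the 8: of the 2086 genes averaging 100 CPM or more, only 8.1% had a smaller spread within groups, and its highest library was 1.11 times its lowest.

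Selplg, which encodes PSGL-1, the ligand of the selectins on leukocytes and microglia, lies 18.02 kb from Tmem119 on the same strand (chromosome 5, 113956597 to 113970705), with 1 listed gene, Gm19931, between them. It had 1437, 1316 and 1334 CPM in Cd5l-transgenic mice 1, 2 and 3, against 1232 and 1319 CPM in 5xFAD mice 1 and 3. Cd5l-transgenic mouse 1 was highest and 5xFAD mouse 1 lowest, and the other 3 libraries lay together, so that the groups overlapped. Means of 1362 ± 65.3 CPM in the Cd5l-transgenic (SD, n = 3) and 1276 ± 61.3 CPM in the 5xFAD mice (SD, n = 2) gave a log2 fold change of 0.09 (SE 0.10), the highest of the 8 and within the spread between mice. Of all pairs among the 8 genes, Tmem119 and Selplg had the most similar profiles over the 5 libraries, with a root mean square distance of 0.03 on the centred log2 scale, and Fcrls and Slc2a5 the least similar, at 0.23. Tmem119 and Selplg also had the flattest profiles of the 8 (root mean square 0.05 and 0.07), which limits the distance between them. Monocytes and neutrophils also express Selplg. All 6 monocyte markers and all 8 neutrophil markers had positive log2 fold changes and none of them was at 0 counts in any library. Neither edgeR nor DESeq2 called any of them. In the edgeR test 2 monocyte and 3 neutrophil markers had an unadjusted p under 0.05, against 2.63% of all tested genes (1.14% higher). Every Cd5l-transgenic library lay above both 5xFAD libraries for 3 monocyte and 2 neutrophil markers, against 7.20% of all tested genes. The monocyte markers summed to 30.3 to 43.8 CPM in the Cd5l-transgenic mice and 21.4 to 25.1 CPM in the 5xFAD mice, and the neutrophil markers to 81.6 to 216.3 CPM in the Cd5l-transgenic and 64.9 to 85.2 CPM in the 5xFAD mice. Both sums were highest in Cd5l-transgenic mouse 1, and their part in the Selplg values was not tested. Among genes that act with PSGL-1, Gcnt1, whose enzyme builds the branched sugars on which selectins bind, was the most abundant per length, at 38.9 CPM per kb in the Cd5l-transgenic and 40.7 CPM per kb in the 5xFAD mice. Of the 3 selectin genes, Selp and Sele were too low to be tested.

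Slc2a5 encodes the fructose transporter GLUT5 (chromosome 4, 150203740 to 150228626, plus strand), which in the brain is found mainly on microglia. It stood at 241.1, 228.7 and 224.5 CPM in Cd5l-transgenic mice 1, 2 and 3, against 203.8 and 243.3 CPM in 5xFAD mice 1 and 3. The Cd5l-transgenic mice lay between the 2 5xFAD mice, which held the lowest and the highest value. The log2 fold change was 0.05 (SE 0.10), and it was 0.18 without 5xFAD mouse 3 and -0.07 without 5xFAD mouse 1. Slc2a5 was not the most abundant glucose transporter family member per length: Slc2a1, the transporter GLUT1 of brain endothelium and many other cells, had 88.4 CPM per kb in the Cd5l-transgenic and 73.0 CPM per kb in the 5xFAD mice, while Slc2a5 had 68.0 CPM per kb in the Cd5l-transgenic and 65.7 CPM per kb in the 5xFAD mice. The ratio of Slc2a5 to Slc2a1 per kb lay between 0.568 and 0.988 in the 5 libraries, and the other 5 tested relatives were below Slc2a5 in every library. Slc2a1 was highest, at 415.1 CPM, in Cd5l-transgenic mouse 2. The summed endothelial markers were also highest there, as were the summed mural and fibroblast, oligodendrocyte, astrocyte, neuronal and erythroid markers. Their part in the Slc2a1 values was not tested.

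Fcrls encodes a mouse Fc receptor-like molecule with a scavenger receptor domain and is a marker of resident microglia (chromosome 3, 87158065 to 87171045, minus strand). It is also the neighbour of Cd5l, 94.1 kb away with no listed gene between them. It had 2120, 2125 and 2235 CPM in Cd5l-transgenic mice 1, 2 and 3, against 2682 and 2024 CPM in 5xFAD mice 1 and 3. The 3 Cd5l-transgenic mice lay close together between the 5xFAD mice. Means were 2160 ± 65.3 CPM in the Cd5l-transgenic (SD, n = 3) and 2353 ± 464.8 CPM in the 5xFAD mice (SD, n = 2), with a log2 fold change of -0.12 (SE 0.14). That sign rested on 5xFAD mouse 1: without it the value was 0.10, and without 5xFAD mouse 3 it was -0.31 (unadjusted p = 0.0235 in the edgeR test across all genes, adjusted p = 0.951). The Fcrls transcripts shared none of their 2285 words of 50 bases with those of Cd5l or of any other gene in GENCODE M21. Fcrls stood at 185 to 256 times the level per length of Fcrl1, the most abundant of its 5 relatives, of which 3 were too low to be tested.

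Promoter windows of RefSeq (GRCm38.p6, 250 bases before to 50 after the start) were found for 6 of the 8 genes, all but Tmem119 and Selplg. Those of Fcrls (chr3:87263475-87263774, minus strand) and Rhob (chr12:8499960-8500259, minus strand) are shown because these were the members with negative log2 fold changes and the widest spread within groups. They are written 5′ to 3′, with capitals marking GAGGAA, the core of sites for the myeloid factor PU.1, and CCAAT, the CCAAT box, on either strand.
Fcrls: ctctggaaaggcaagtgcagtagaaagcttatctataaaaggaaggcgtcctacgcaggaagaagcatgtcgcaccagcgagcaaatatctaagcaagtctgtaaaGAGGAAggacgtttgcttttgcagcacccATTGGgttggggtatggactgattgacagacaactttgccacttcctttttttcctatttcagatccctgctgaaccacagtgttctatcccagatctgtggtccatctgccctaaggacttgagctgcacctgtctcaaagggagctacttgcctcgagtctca
Rhob: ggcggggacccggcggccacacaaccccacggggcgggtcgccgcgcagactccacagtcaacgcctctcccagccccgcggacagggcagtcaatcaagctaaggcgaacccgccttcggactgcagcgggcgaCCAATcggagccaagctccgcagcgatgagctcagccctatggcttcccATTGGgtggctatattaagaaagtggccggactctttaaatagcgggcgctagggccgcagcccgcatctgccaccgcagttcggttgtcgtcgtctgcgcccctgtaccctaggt
The Fcrls window held 1 GAGGAA and 1 CCAAT, and the Rhob window 2 CCAAT and no GAGGAA. Over all 32851 windows of the table, 28.3% held GAGGAA and 37.4% held CCAAT on either strand. The AP-1 sequence TGACTCA, found in 5.20% of all windows, was on neither strand in the windows of the 6 genes. No matches overlapped each other.

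Sall1 encodes the zinc-finger transcription factor that is found in microglia and not in other macrophages and keeps up microglial identity (chromosome 8, 89753863 to 89770790, minus strand). Its level was 582.6, 503.4 and 623.9 CPM in Cd5l-transgenic mice 1, 2 and 3, against 518.4 and 602.4 CPM in 5xFAD mice 1 and 3. Low and high mice occurred in both groups, with Cd5l-transgenic mouse 2 and 5xFAD mouse 1 low. Means of 570 ± 61.2 CPM in the Cd5l-transgenic (SD, n = 3) and 560.4 ± 59.4 CPM in the 5xFAD mice (SD, n = 2) gave a log2 difference of 0.02 (SE 0.13), which was 0.14 without 5xFAD mouse 3, -0.08 without 5xFAD mouse 1 and -0.03 without Cd5l-transgenic mouse 3. A long non-coding gene on the opposite strand overlaps 2470 bases of Sall1, with 273 to 329 counts beside the 15300 to 21348 counts of Sall1. The strand setting of the counting was not given in the sources used here. Without it, reads of these 2 genes cannot be told apart within the shared bases. Its relative Sall3 was measured at 15.1 CPM per kb in the Cd5l-transgenic and 17.4 CPM per kb in the 5xFAD mice. Sall1 stood at 5.08 to 7.41 times the level of Sall3 per length.

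Olfml3 and Sparc encode secreted proteins. Olfml3, an olfactomedin-domain protein of the extracellular matrix (chromosome 3, 103629538 to 103645317, minus strand), had 1423, 1377 and 1354 CPM in Cd5l-transgenic mice 1, 2 and 3, against 1501 and 1235 CPM in 5xFAD mice 1 and 3. As with Fcrls, the Cd5l-transgenic mice lay between the 5xFAD mice, of which mouse 1 was highest and mouse 3 lowest. Means of 1385 ± 34.99 CPM in the Cd5l-transgenic (SD, n = 3) and 1368 ± 188.4 CPM in the 5xFAD mice (SD, n = 2) gave a log2 fold change of 0.02 (SE 0.12). Without 5xFAD mouse 3 it was -0.12, without 5xFAD mouse 1 it was 0.17 and without Cd5l-transgenic mouse 1 it was -0.0020. Olfml3 exceeded Olfml2b, the most abundant of its 4 tested relatives, 32.7 to 40.2 times per length.

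Sparc, a collagen-binding matricellular protein (chromosome 11, 55285326 to 55314009, minus strand), had 2076, 2118 and 2408 CPM in Cd5l-transgenic mice 1, 2 and 3, against 2162 and 2183 CPM in 5xFAD mice 1 and 3. Only Cd5l-transgenic mouse 3 stood above the rest, and the 2 5xFAD mice lay within the range of the other group. The means of 2201 ± 180.8 CPM in the Cd5l-transgenic (SD, n = 3) and 2173 ± 14.4 CPM in the 5xFAD mice (SD, n = 2) gave a log2 fold change of 0.02 (SE 0.11), which was -0.03 without Cd5l-transgenic mouse 3. Endothelial and mural cells also make Sparc. Of the endothelial markers 12 of 12 and of the mural and fibroblast markers 10 of 12 had positive log2 fold changes, and none was at 0 in any library. The edgeR test called 0 of either list. It put 1 endothelial and 3 mural genes at an unadjusted p under 0.05, against 2.63% of all tested genes (1.14% higher). Every Cd5l-transgenic library lay above both 5xFAD libraries for 7 endothelial (58.3%) and 3 mural genes (25%), against 7.20% of all tested genes. DESeq2 called 0 of the endothelial and 3 of the mural genes, against 0.0752% of the genes it tested, all higher in the Cd5l-transgenic mice. These 3, Acta2, Myh11 and Tagln, which encode contractile proteins of smooth muscle, are named after their values were seen. The 2 most abundant mural genes, Rgs5 and Cspg4, overlapped between groups, with log2 fold changes of 0.21 (SE 0.40) and 0.03 (SE 0.53). Col1a1 (-0.10) and Col1a2 (-0.52) were the mural and fibroblast genes below 0. Endothelial markers summed to 732 to 1361 CPM in the Cd5l-transgenic mice and 662.5 to 681 CPM in the 5xFAD mice, and mural and fibroblast markers to 383.5 to 532.9 CPM in the Cd5l-transgenic and 291.4 to 319.6 CPM in the 5xFAD mice. Both sums were highest in Cd5l-transgenic mouse 2, and their part in the Sparc values was not tested. The relative Sparcl1, made by astrocytes and endothelium, had 151.9, 309.2 and 152.1 CPM in Cd5l-transgenic mice 1, 2 and 3, against 98.0 and 144.8 CPM in 5xFAD mice 1 and 3 (log2 fold change 0.75, SE 0.39).

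**Figure D2:**
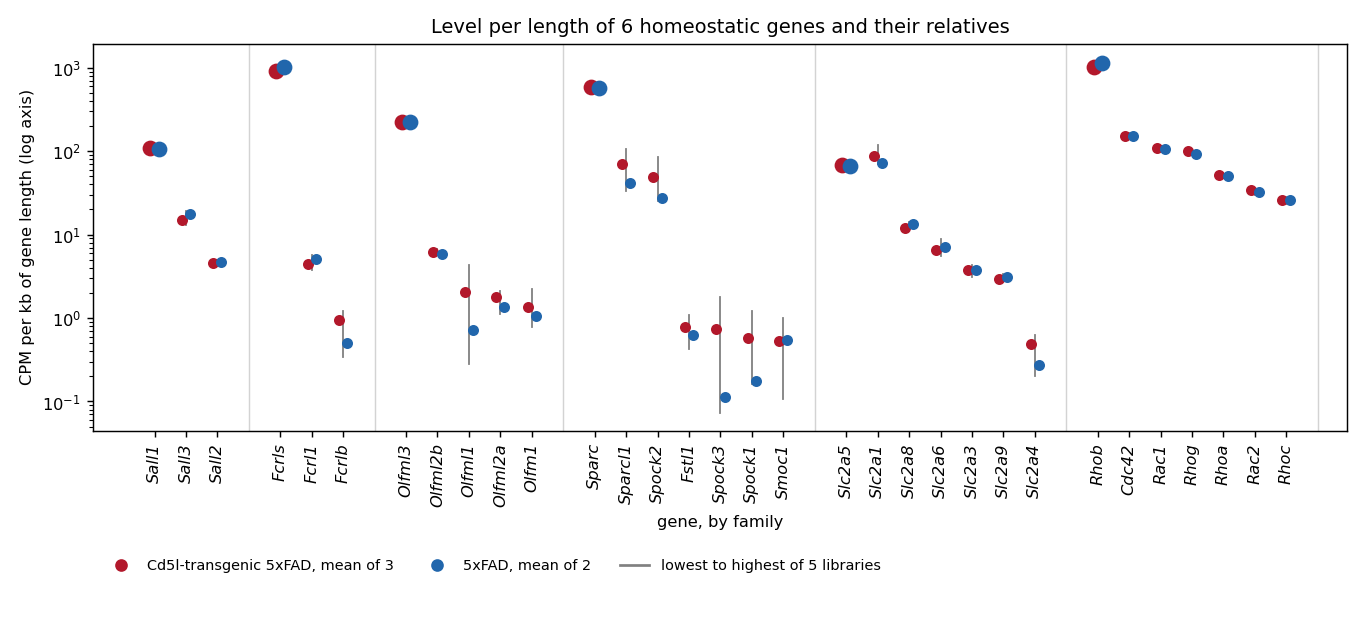
Mean level per kb of gene length (log axis) of 6 of the homeostatic genes, as large points, and of their tested relatives, in 3 Cd5l-transgenic 5xFAD mice (red) and 2 5xFAD mice (blue), with grey lines from the lowest to the highest of the 5 libraries. Sall1, Fcrls, Olfml3, Sparc and Rhob stood above every tested relative, while Slc2a5 stood below Slc2a1, at ratios of 0.568 to 0.988.

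Rhob encodes a small GTPase of endosomes and the actin cytoskeleton whose gene is induced early after stimulation (chromosome 12, 8547661 to 8550009, minus strand). It had 2169, 2154 and 2786 CPM in Cd5l-transgenic mice 1, 2 and 3, against 2645 and 2665 CPM in 5xFAD mice 1 and 3. Cd5l-transgenic mice 1 and 2 were low, and mouse 3 was the highest of all, above both 5xFAD mice. The means were 2370 ± 360.7 CPM in the Cd5l-transgenic (SD, n = 3) and 2655 ± 14.6 CPM in the 5xFAD mice (SD, n = 2), with the lowest log2 fold change of the 8 genes, -0.16 (SE 0.15, 95% interval -0.52 to 0.19). Without Cd5l-transgenic mouse 3 it was -0.28 (unadjusted p = 0.0582 in the edgeR test across all genes, adjusted p = 0.874), and without mouse 2 it was -0.09. A list of 14 genes held immediate early genes, such as Zfp36 and Jun, and the heat shock genes Hspa1a and Hspa1b. Its sum was also lowest in Cd5l-transgenic mice 1 and 2. The sums were 13460, 12110 and 18990 CPM in Cd5l-transgenic mice 1, 2 and 3, against 19010 and 18170 CPM in 5xFAD mice 1 and 3. Hspa1a and Hspa1b were instead lowest in 5xFAD mouse 1, at 70.1 and 96.6 CPM. Of the 14 genes 13 had a log2 fold change below 0 (median -0.31), and none was at 0 counts in any library. None of the 14 passed the edgeR test or was called by DESeq2, and 1 had an unadjusted p under 0.05, against 2.63% of all tested genes. In 3 of the 14 every Cd5l-transgenic library lay below both 5xFAD libraries, against 8.69% of all tested genes. Such genes also respond to cell isolation, and their part in the Rhob values was not tested. Rhob stood above its 6 tested relatives in every library, by 6.38 to 7.48 times over Cdc42, the most abundant of them per length.

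Among the 8 genes, 5xFAD mouse 1 stood at an end of the range for 5, in both directions. It had the lowest level of all 5 mice for Tmem119, Slc2a5 and Selplg, and the highest for Fcrls and Olfml3. Summed genes of the plaque-associated microglial state were also highest in that mouse, as were 6 of the 8 single genes of stage 1 and 18 of the 19 of stage 2. How often this mouse held an end of the range over all tested genes was not counted, so these counts have no share beside them. The 8 genes of stage 1, such as Apoe and Ctsd, summed to 46220, 46510 and 38640 CPM in Cd5l-transgenic mice 1, 2 and 3, against 58900 and 38680 CPM in 5xFAD mice 1 and 3. The 19 genes of stage 2, such as Trem2 and Ctsz, summed to 17230, 16570 and 16000 CPM in the Cd5l-transgenic mice, against 26490 and 15950 CPM in the 5xFAD mice. Of the stage 1 genes 7 and of the stage 2 genes 18 had log2 fold changes below 0, with 0 called by edgeR or DESeq2 in either list. In the edgeR test 1 stage 2 gene had an unadjusted p under 0.05, against 2.63% of all tested genes (1.50% lower). Every Cd5l-transgenic library lay below both 5xFAD libraries for 1 gene of each list. These were shares of 12.5% in stage 1 and 5.26% in stage 2, against 8.69% of all tested genes. Whether the plaque-associated state of 5xFAD mouse 1 had a part in the levels of the homeostatic genes was not tested. Within groups, Tmem119, Selplg and Sparc varied less than the median gene of that 100 CPM class (SD 0.106 on the log2 scale). Sall1, Fcrls and Rhob varied most, with SDs of 0.156, 0.169 and 0.173.

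**Figure D3:**
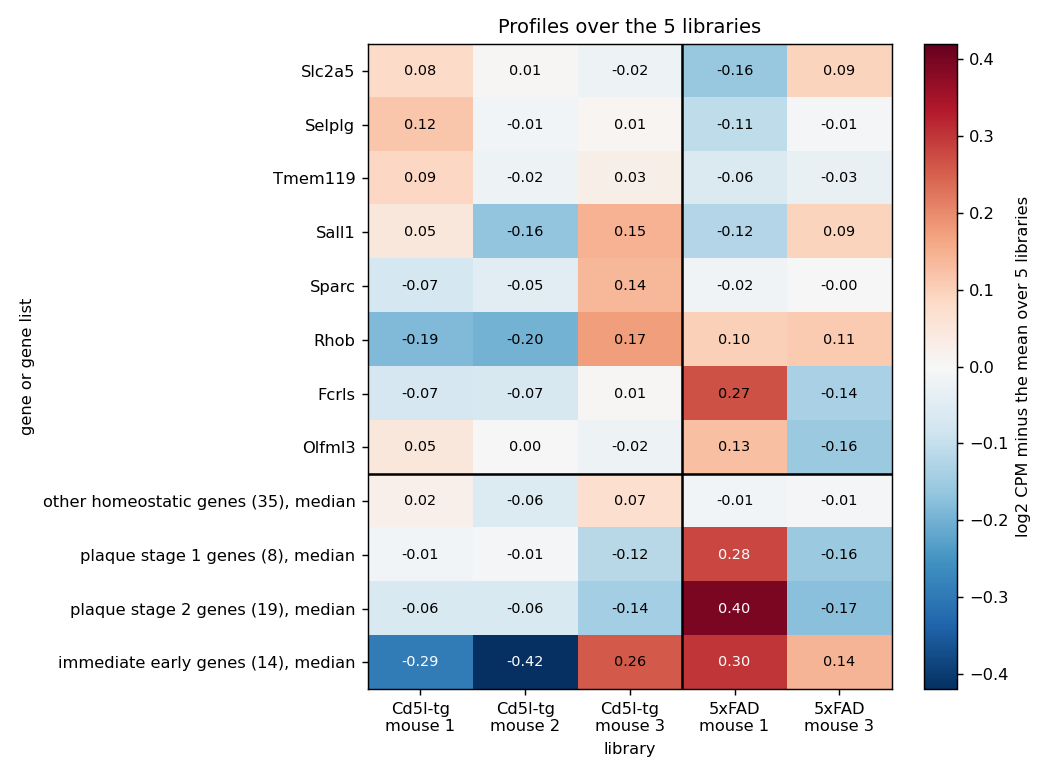
Log2 CPM of each homeostatic gene minus its mean over the 5 libraries, with the Cd5l-transgenic 5xFAD mice left of the vertical line, and below the horizontal line the median of the same quantity over 4 gene lists. 5xFAD mouse 1 stands out in opposite directions for Slc2a5 (-0.16) and Fcrls (0.27). Rhob shares its low values in Cd5l-transgenic mice 1 and 2 with the median of the immediate early list, which includes Hspa1a and Hspa1b.

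Candidates for similar profiles were 7143 genes averaging 20 CPM or more. The 8 members and genes with provisional symbols, Gm plus digits or ending in Rik, were left out. The 2 most similar to each of the 8 were found by root mean square distance between centred log2 profiles over the 5 libraries. For Fcrls they were Cd34 (distance 0.0179), which stood at 546.1, 538.3 and 574.3 CPM in Cd5l-transgenic mice 1, 2 and 3, against 705.8 and 524.6 CPM in 5xFAD mice 1 and 3, and Blvra (0.0199). For Tmem119 they were C5ar2 (0.0156) and Arhgef7 (0.0160), for Sall1 Vrk2 (0.0138) and Slc25a37 (0.0152), for Olfml3 Eef1b2 (0.0173) and Ncl (0.0182), and for Sparc Usp25 (0.0101) and Ppp2r2a (0.0122). Slc2a5 was nearest to Pals1 (0.0275) and Tlr12 (0.0328), Selplg to Eif4ebp2 (0.0149) and Magt1 (0.0162), and Rhob to Memo1 (0.0240) and Srsf3 (0.0247). With 5 libraries and so many candidates, close profiles are common: 5.94% of candidates lay nearer to Tmem119 than a flat profile did, and 47.8% lay nearer to Rhob than a flat profile did.

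Other genes of the same microglial signature, among them receptors, enzymes and transcription factors, did not pass the test either. Of 36 such genes 35 could be tested, and Gal3st4 was too low. None passed the edgeR test, 0 had an unadjusted p under 0.05 and DESeq2 called 0. Log2 fold changes were above 0 for 23 and below 0 for 12, with a median of 0.03, and 5 of the 35 (14.3%) did not overlap between the groups, a share near the 15.9% of all tested genes. Of these 5, 3 lay higher in the Cd5l-transgenic mice. Csf1r, the receptor for the survival factors of microglia, had 6928, 6495 and 6699 CPM in Cd5l-transgenic mice 1, 2 and 3, against 5998 and 6231 CPM in 5xFAD mice 1 and 3 (log2 fold change 0.13, SE 0.11). Entpd1, the ectonucleotidase CD39, had 695.4, 683 and 691.4 CPM in the Cd5l-transgenic mice, against 552 and 673.3 CPM in the 5xFAD mice (log2 fold change 0.17, SE 0.11, and 0.04 without 5xFAD mouse 1). Smad3, a mediator of TGF-beta signalling, had 141.8, 144.3 and 143.4 CPM in the Cd5l-transgenic mice, against 129.4 and 137.2 CPM in the 5xFAD mice (0.10, SE 0.07). The other 2 lay lower. Of them, Ltc4s, the leukotriene C4 synthase, had 75.5, 74.3 and 75.0 CPM in the Cd5l-transgenic mice, against 76.5 and 78.3 CPM in the 5xFAD mice (-0.05, SE 0.07). None of the 4 differences given passed (edgeR quasi-likelihood adjusted p = 0.995 for each).

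**Figure D4:**
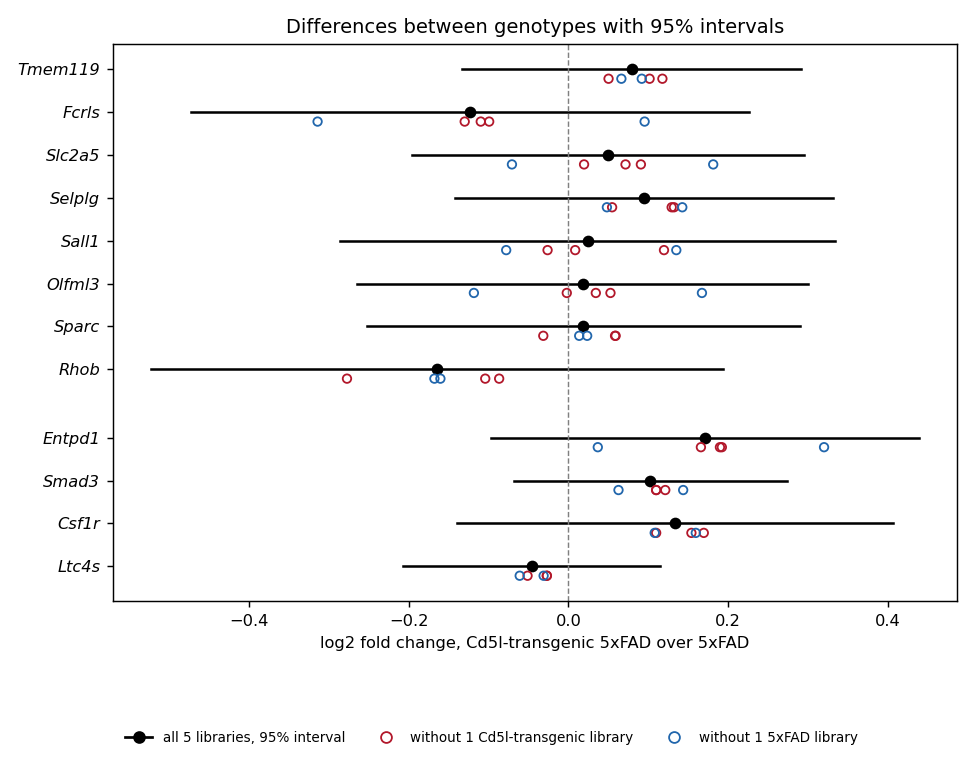
Log2 fold change of Cd5l-transgenic 5xFAD over 5xFAD for the 8 homeostatic genes and, below them, the 4 named genes of the wider signature, as black points with 95% intervals from the edgeR fit. Open circles give the value without 1 Cd5l-transgenic (red) or 1 5xFAD (blue) library; every interval covers 0, and Fcrls lies at -0.31 or 0.10 depending on which 5xFAD mouse is left out.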

How the data were processed

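Gene counts of 5 libraries, 1 per mouse by title, were used as deposited by the authors: whole-number counts per Ensembl gene, not normalised, in 1 table that also lists gene lengths. Per the submitters' processing notes, reads were placed on GRCm39 (mm39). The aligner, counting tool, annotation release and strandedness were not given in the sources used here. Columns were matched to libraries by name, and 1 column, with its letter pairs in the opposite order, was taken as Cd5l-transgenic mouse 3.

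Genes kept by filterByExpr (17724) received TMM factors (0.952 to 1.02) and were tested by the quasi-likelihood method of edgeR 4.0.16 (R 4.3.3, robust), with genotype alone in the design and Benjamini-Hochberg adjustment over all tested genes at a threshold of 0.05. Differences are Cd5l-transgenic minus 5xFAD. Standard errors came from dividing each fold change by the root of its F statistic, and 95% intervals from the t distribution of the fit. A count was worth 0.0287 to 0.0325 CPM. Every pair of libraries differed by more than sampling noise (chi-square per degree of freedom at least 19.5), and none was merged. The scripts were tested on simulated counts.

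The 8 members and all gene lists were chosen with earlier results of these data known. The genes named were the 8 members, Cd5l, up to 3 genes per direction of the wider signature with no overlap between groups and the smallest unadjusted p, the most abundant relative of each family per length, the most abundant markers of a list, and the 2 genes nearest to each member in profile. One gene of the wider signature that this rule names is not reported here. Sparcl1 as a relative is named under this rule. Selp, Sele, Hba-a2, Hbb-bt, Alas2, Acta2, Myh11, Tagln, Col1a1, Col1a2, Hspa1a, Hspa1b and the overlapping gene of Sall1 are named outside it. Lists of astrocyte (8 genes, 310.9 to 457.4 CPM), border macrophage (7 genes, 214.2 to 386.6 CPM) and lymphocyte markers (3 tested genes, 6.57 to 10.3 CPM) were summed in the same way over the 5 libraries. Alternatives were other scalings, DESeq2 1.42.0, limma-voom (limma 3.58.1) with sample weights, an older quasi-likelihood method, other filters, a block for the replicate number, and fits with libraries left out. Words of 50 bases were compared between transcripts of GENCODE M21 (GRCm38), and promoter windows came from RefSeq (GRCm38.p6) by symbol.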

Additional observations from a re-analysis of the deposited data

How the results depend on the processing

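None of the 8 genes passed under any of the 16 alternatives (smallest adjusted p = 0.856). Log2 fold changes of Tmem119 and Selplg were above 0 and that of Rhob below 0 in all 16, whereas 11 of the 128 values of single genes had the opposite sign. With pan-microglial size factors these were Sall1 (-0.0068) and Sparc (-0.0023), and with limma-voom Sparc (-0.029). Without Cd5l-transgenic mouse 3 they were Sall1 (-0.026) and Sparc (-0.031), without Cd5l-transgenic mouse 1 Olfml3 (-0.0020), and without 5xFAD mouse 1 Sall1 (-0.078), Fcrls (0.095) and Slc2a5 (-0.071). Without 5xFAD mouse 3 it was Olfml3 (-0.118), also with Cd5l-transgenic mouse 2 left out as well (-0.104). With 1 library left out, Sall1 ran from -0.078 to 0.135, Fcrls from -0.314 to 0.095, Olfml3 from -0.118 to 0.167, Sparc from -0.031 to 0.059 and Slc2a5 from -0.071 to 0.181. The median of the 8 ran from 0.013 to 0.065 in those fits, and was 0.094 without 5xFAD mouse 3 and Cd5l-transgenic mouse 2 together; the cause was not tested. Over all genes edgeR called 0 (467 at an unadjusted p under 0.05), DESeq2 11, and 0 to 10 were called with 1 library left out, the 10 without 5xFAD mouse 1. With 5xFAD mouse 3 and Cd5l-transgenic mouse 2 left out together 41 were called. None of the 8 was among them in any of these fits. With the replicate block, 0 genes were called (610 at an unadjusted p under 0.05) and the median of the 8 was 0.052. Both genotypes share only numbers 1 and 3, and deviations of same-numbered mice had a correlation of -0.0604 across genes, so the numbers were not taken as pairs. Where a 5xFAD library is left out, the remaining one is assumed to vary like the other group. Each of the 8 genes had at least 6016 counts in every library, so the number of mice limits the precision more than the depth.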
